A study of Mus musculus with 6 samples.

Results

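Interferon-stimulated genes were examined across 6 single-nucleus RNA libraries of mouse brain lesions as a list of 44 genes, of which 42 of the 32285 counted features could be measured. Mx1 and Mx2 were not analysed here. The list was taken from genes that interferons are known to switch on, not all of them by type I alone, and it was divided by role into 8 groups. It was chosen with earlier results of these data known, so counts of its members beside all genes are description only. All groups carried a photothrombotic (PT) cortical injury, and nuclei came from the dissected lesion. Ctrl mice were wild type (WT) with no treatment given in the labels, ADWA11 mice were WT and received ADWA11, an antibody that blocks integrin αvβ8, and cKO mice carried Col1a2(creER) and Tgfbr2(flox). In cKO mice the Col1a2 promoter drives an inducible Cre, so the type II TGFβ receptor is deleted in fibroblasts and in any other cell in which that promoter is active. Each condition was sampled at 7 and 21 days post injury (dpi) as 1 library, made from the combined tissue of 1 male and 1 female mouse. With 1 library a group there was no replicate and no test, and every interval below covers counting error only. The Ctrl libraries carried neither Cre nor an isotype antibody by their labels, so the alleles, the antibody and their controls cannot be told apart from the library.

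Interferons of type I bind a receptor on nearly every cell, and the kinases JAK1 and TYK2 then switch on the factor ISGF3, which holds STAT2 and IRF9. ISGF3 binds the interferon-stimulated response element (ISRE) in promoters and raises a large set of antiviral genes, among them sensors of foreign nucleic acid, RNA-cleaving and translation-blocking enzymes, and chemokines. Microglia and macrophages, astrocytes, endothelial cells and fibroblasts of the brain can all mount this response, and neurons usually hold lower levels of the genes.

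The promoters of members that differ in their values show how far the ISRE runs through the list. RefSeq promoter windows (GRCm38.p6), read here as the 250 bases before each annotated start, were matched by symbol for 34 of the 44 genes, in 40 windows. The core GAAANNGAAA, searched on both strands with overlapping matches counted, was found in 19 of the 40 windows and in 18 of the 34 genes, against 2.98% of all 32851 windows. The gamma-activated motif TTCNNNGAA, which reads the same on both strands, was found in 5 of the 40 windows against 7.02% of all. A match is a description of letters and not a shown binding site. The core was found in 6 of the 9 genes matched among the 10 with the highest cKO to Ctrl ratios over all nuclei at 7 dpi, and in 4 of the 10 matched among the 12 with the most UMIs. Cmpk2, Ifi44 and Irf7 of the first set held none, and Ifi207, Stat2, Slfn5 and Trim30a (in 1 of its 2 windows) of the second held it. The 6 stretches below show 5 genes of high ratio in which it was found beside Rnf213, the member with the most UMIs, so they are not a sample of the list, and capitals mark the core. Isg15 (chr4:156200819-156201068, minus strand) held 3 overlapping matches, the nearest ending 56 bases before the start. Ifit1 (chr19:34640639-34640888, plus strand) and Ifit3 (chr19:34583279-34583528, plus strand) held 2 each, Cxcl10 (chr5:92348890-92349139, minus strand) and Rsad2 (chr12:26456453-26456702, minus strand) held 1 each, and Rnf213 (chr11:119389849-119390098, plus strand) held none. The Rnf213 window follows the RefSeq start. In GENCODE the gene begins further on, at chr11:119393100, and the bases before that start were not searched.
Isg15: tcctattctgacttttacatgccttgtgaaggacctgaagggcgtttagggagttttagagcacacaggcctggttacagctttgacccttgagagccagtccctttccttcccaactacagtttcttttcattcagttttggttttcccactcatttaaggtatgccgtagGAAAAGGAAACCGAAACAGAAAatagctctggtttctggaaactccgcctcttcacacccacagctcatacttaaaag
Ifit1: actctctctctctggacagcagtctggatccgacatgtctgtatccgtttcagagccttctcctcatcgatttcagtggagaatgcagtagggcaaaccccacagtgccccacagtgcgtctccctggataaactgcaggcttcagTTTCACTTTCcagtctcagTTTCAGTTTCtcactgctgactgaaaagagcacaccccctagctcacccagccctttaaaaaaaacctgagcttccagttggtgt
Ifit3: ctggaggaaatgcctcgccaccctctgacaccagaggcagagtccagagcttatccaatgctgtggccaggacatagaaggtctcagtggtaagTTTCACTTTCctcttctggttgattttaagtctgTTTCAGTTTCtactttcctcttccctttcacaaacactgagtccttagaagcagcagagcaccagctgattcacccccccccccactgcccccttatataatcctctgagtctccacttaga
Cxcl10: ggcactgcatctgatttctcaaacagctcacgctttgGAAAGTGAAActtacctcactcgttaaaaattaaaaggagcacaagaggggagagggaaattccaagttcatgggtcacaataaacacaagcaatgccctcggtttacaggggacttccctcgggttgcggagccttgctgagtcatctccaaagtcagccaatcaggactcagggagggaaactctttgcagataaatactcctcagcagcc
Rsad2: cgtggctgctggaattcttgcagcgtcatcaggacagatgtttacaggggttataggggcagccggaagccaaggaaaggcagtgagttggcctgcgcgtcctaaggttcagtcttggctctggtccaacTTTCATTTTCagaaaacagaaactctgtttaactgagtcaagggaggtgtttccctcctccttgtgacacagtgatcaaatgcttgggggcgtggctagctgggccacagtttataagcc
Rnf213: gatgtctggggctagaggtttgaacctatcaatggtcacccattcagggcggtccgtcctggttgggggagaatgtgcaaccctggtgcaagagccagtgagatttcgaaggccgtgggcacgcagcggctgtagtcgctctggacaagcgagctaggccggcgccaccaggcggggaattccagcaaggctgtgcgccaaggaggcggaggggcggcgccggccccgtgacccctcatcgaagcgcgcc

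The libraries held 7205 to 14246 barcodes and 64798965 to 140310354 UMIs, with medians of 4607 to 8462 UMIs in the 61650 nuclei kept of 67360 barcodes. Of the barcodes, 549 occurred in 2 libraries and 4 in 3. Nuclei were grouped into 26 clusters and named by marker genes as myeloid, fibroblast, astrocyte, oligodendrocyte precursor (OPC), oligodendrocyte, neuron, endothelial, mural and T cell classes, and clusters 7, 18 and 23 stayed unnamed. The targeted gene Tgfbr2 stood at 328 CPM in Ctrl and 243 CPM in cKO fibroblasts at 7 dpi, and at 231 and 191 CPM at 21 dpi. ADWA11 fibroblasts, wild type at this gene, stood at 250.4 and 199.0 CPM, close to cKO, so these values do not check the deletion. They cover the whole gene and do not separate deleted from intact transcripts. The median mitochondrial share of a nucleus was 0.0492% in the cKO library at 7 dpi and 0.108% to 0.287% in the other libraries.

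Summed over all nuclei, the 42 genes were lower in the cKO library at 7 dpi, not higher. They stood at 1227 CPM (UMIs per 1000000 non-mitochondrial UMIs) in Ctrl, 1291 CPM in ADWA11 and 597 CPM in cKO at 7 dpi. At 21 dpi they stood at 1284, 2128 and 1143 CPM in the same order. The cKO library at 7 dpi was the lowest of the 6 and ADWA11 at 21 dpi was the highest. The log2 ratio of cKO to Ctrl at 7 dpi was -1.04 (95% interval -1.05 to -1.02). Throughout, a member was counted as higher or lower where its CPM differed at least 2-fold and the pair of libraries held at least 20 of its UMIs. By that rule 5 of 42 members were higher and 16 lower in all nuclei, where 22.8% and 27.7% of all genes were.

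The make-up of the libraries moved with that sum. Neurons, which hold few transcripts of these genes, were 5909 of 10594 nuclei in the cKO library at 7 dpi and 136 of 8283 in Ctrl. They gave 82.6% of the cKO library's UMIs and 33.9% of its member UMIs. Myeloid nuclei gave 7.27% of the cKO library's UMIs and 43.9% of its member UMIs, against 44.9% and 57.9% in Ctrl. Without the neuron clusters the log2 ratio of cKO to Ctrl was 0.86, and with the class levels of cKO weighted by the class make-up of Ctrl it was 1.22, so the direction for the whole library turned with the nuclei counted. How many neurons the lesion held and how much tissue around it was dissected cannot be told apart here. The members are therefore described within classes.

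Within classes the summed level was higher in cKO than in Ctrl at 7 dpi in myeloid nuclei, fibroblasts, astrocytes, OPCs, T cells, endothelial cells, mural cells and the unnamed cluster 18. Myeloid nuclei stood at 1584 CPM in Ctrl, 1717 CPM in ADWA11 and 3603 CPM in cKO at 7 dpi, and at 1833, 3269.9 and 2356 CPM at 21 dpi. Fibroblasts stood at 898, 1012 and 2372 CPM at 7 dpi and at 1167, 1645 and 1560.3 CPM at 21 dpi. In both classes the cKO library at 7 dpi was the highest of the 6 libraries. Astrocytes stood at 474, 642 and 1299 CPM at 7 dpi and at 714, 1063 and 869.6 CPM at 21 dpi. OPCs stood at 406, 366 and 689 CPM at 7 dpi and at 418, 313 and 537 CPM at 21 dpi. T cells stood at 2706, 2609 and 5036 CPM at 7 dpi and at 2597, 2745 and 2108 CPM at 21 dpi. Here too the cKO library at 7 dpi held the highest value of each class. In neurons the levels were 245 CPM in Ctrl and 245 CPM in cKO at 7 dpi, and in oligodendrocytes 648 and 718 CPM.

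**Figure D1:**
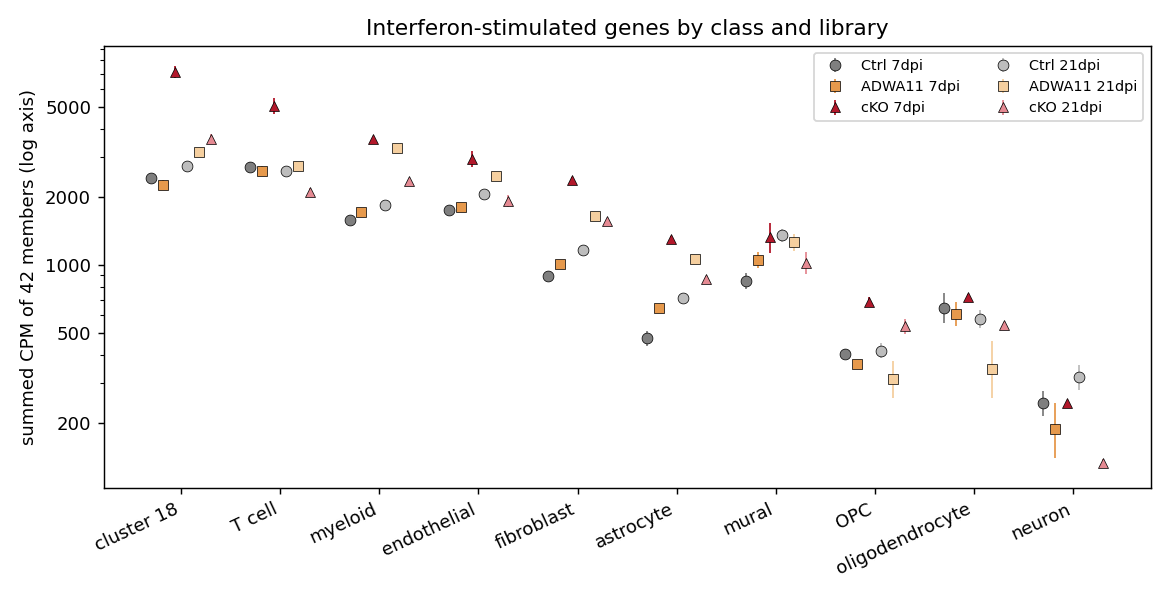
Summed CPM of the 42 interferon-stimulated genes (vertical axis, log scale) by cell class for the 6 libraries, with 95% Poisson intervals as bars. In myeloid nuclei the cKO library at 7 dpi stands at 3603 CPM against 1584 CPM in Ctrl and 1717 CPM in ADWA11, while in neurons the Ctrl and cKO points lie together at 245 CPM.

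The log2 ratio of cKO to Ctrl at 7 dpi was 1.19 (95% interval 1.16 to 1.21) in myeloid nuclei, with 32 of the 41 members measured there higher and 0 lower, where 12.3% and 5.2% of all genes were. All 41 had a ratio above 1, and their median log2 ratio was 1.53 where that of all genes was 0.07. In fibroblasts it was 1.40 (1.36 to 1.44), with 32 of 41 higher and 1 lower against 9.03% and 5.29% of all genes, and a median of 1.72 against 0.09. In astrocytes it was 1.46 (1.33 to 1.58), with 21 of 30 higher and 0 lower against 11.7% and 7.91% of all genes. These 3 classes thus held the difference in most of their measured members. The astrocyte label held poorly for Ctrl, whose nuclei of that class held more OPC than astrocyte markers. In OPCs the log2 ratio was 0.76 (0.66 to 0.86), with 14 of 29 members higher and 2 lower against 5.2% and 7.91% of all genes. T cells gave 0.90 (0.76 to 1.03), with 16 of 29 higher against 9.0% of all genes, from only 51 cKO nuclei. Endothelial cells gave 0.75 (0.62 to 0.88), with 9 of 26 higher against 8.76%, from 37 cKO nuclei. The smaller classes pointed the same way with fewer members. Mural cells gave 0.64 (0.38 to 0.89), with 3 of 15 members higher and 1 lower against 8.42% and 16.4% of all genes, from 39 cKO nuclei. Their median member gave only 0.15. Cluster 18, led by Sirpb1a, Gpr141, Plbd1, Ccr2 and Flt3, gave 1.56 (1.45 to 1.66), with 23 of 25 higher against 6.34%, from 52 cKO nuclei. Neurons gave 0.00 (-0.18 to 0.19), with 3 of 41 members higher and 7 lower where 5.68% and 13.4% of all genes were. That value pooled neuron clusters of unequal make-up. Cluster 15 held 1078 cKO and 80 Ctrl nuclei and gave -0.36 (-0.62 to -0.09), and cluster 12 held 1525 and 36 and gave 0.28 (-0.02 to 0.59). Oligodendrocytes gave 0.15 (-0.08 to 0.38), with 5 of 28 higher and 4 lower, where 13.3% and 8.08% of all genes were. The Ctrl library held only 136 neuron and 46 oligodendrocyte nuclei, with 240 and 169 member UMIs, so ratios of single members there are imprecise.

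Markers of other cells moved with these values. The summed level of the neuron markers was higher in the cKO library at 7 dpi than in Ctrl within myeloid nuclei (359 against 43.9 CPM), fibroblasts (331 against 96.8 CPM), astrocytes (378 against 76.1 CPM) and OPCs (429.6 against 83.3 CPM). The cKO neurons held the members at 245 CPM, below the level in each of these classes. The cKO myeloid nuclei held them at 3603 CPM, above the fibroblasts, astrocytes and OPCs. Over all libraries, a fibroblast sub-cluster of 4165 nuclei, led by Inpp5d, Blnk and Ikzf1, had 9 myeloid markers raised and 41.7% doublet calls. In the T cell class the myeloid markers stood at 6384 CPM in cKO and 1543 CPM in Ctrl, above the T cell markers (4447 CPM) in cKO. The astrocyte class of Ctrl at 7 dpi held 6029 CPM of OPC markers and 3032 CPM of astrocyte markers, and that of cKO 950.3 and 10389.8 CPM, so the label holds poorly for Ctrl. Fibroblast markers stood at 657 CPM in Ctrl and 54.3 CPM in cKO myeloid nuclei. The part of these RNAs in the member values was not tested.

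Within the myeloid class the difference was shared by the clusters that held most nuclei. Cluster 0, led by Cx3cr1 and Sall1, genes of resting microglia, held 1843 of the 2277 cKO and 1926 of the 4092 Ctrl nuclei, and stood at 3559 CPM in cKO and 1475 CPM in Ctrl (log2 ratio 1.27, 1.24 to 1.30). In it 34 of 41 members were higher, where 11.4% of all genes were. Cluster 1, led by F13a1, Ciita and Ms4a7, genes of macrophages, held 226 and 1464 nuclei and stood at 4741 and 1720 CPM (log2 ratio 1.46). In it 32 of 40 members were higher, where 7.91% of all genes were. Cluster 16, led by the cell division genes Top2a and Kif11, gave 1.26, and cluster 19, led by Cd163 and Mrc1, gave 0.33 with 2 of 23 members higher, where 5.68% of all genes were, from 29 cKO nuclei. Finer sub-clusters of the class lay apart by library. The one led by Nrg3, Dpp10 and Syt1, genes of neurons, held 1931 cKO and 170 Ctrl nuclei, at 3764 and 1021 CPM, and the one led by Csmd3 and Adamts16 held 28 cKO and 1590 Ctrl nuclei, at 2202 and 1536 CPM. A sub-cluster led by Bnc2 and Col1a2 held 26 and 1115. Without the Nrg3 and Bnc2 sub-clusters, both led by genes of another class (1931 and 26 of the 2277 cKO nuclei left out) the log2 ratio of the class was 1.04, and it rests on the few cKO nuclei that remain. Among fibroblasts, cluster 6, led by Lamc3 and Lama1, gave 1.26 with 25 of 39 members higher, where 7.32% of all genes were, and cluster 10, led by Trpm3 and Slc6a20a, gave 0.20 with 3 of 24 higher and 3 lower, where 5.17% and 8.71% of all genes were. Clusters 2 and 4, each with 58 cKO nuclei, gave 1.04 and 0.88. All 4 values lie below the 1.40 of the whole class. Cluster 8, led by Eln, Col8a1 and Fap, held 852 of the 2486 Ctrl fibroblasts at 591 CPM, below the 1051 to 1452 CPM of the other 4 in Ctrl, and held under 20 cKO nuclei. The fibroblasts of the libraries thus lay in different clusters, and that share moved with the class ratio.

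The IFIT genes, whose proteins bind viral RNA and block its translation, had the second largest ratio of the 8 role groups in myeloid nuclei, after the chemokines (4.38). In fibroblasts their ratio was among the largest of the 8 groups. They lie side by side on chromosome 19 (GRCm38, from Ifit2 at chr19:34550694-34576419 to Ifit1 at chr19:34640871-34650009), and Ifit3 and Ifit3b are close copies between which reads may have been split. Summed over the 4 genes, myeloid nuclei held 11.4 CPM in Ctrl, 14.8 in ADWA11 and 103 in cKO at 7 dpi. At 21 dpi they held 13.01, 28.6 and 14.6 CPM. The cKO library at 7 dpi stood apart from the other 5, with a log2 ratio to Ctrl of 3.17 (2.98 to 3.37). Fibroblasts held 17.5 and 98.9 CPM (2.498, 2.25 to 2.74), and astrocytes 22.0 and 75.8 CPM (1.79, 1.204 to 2.42). In myeloid nuclei and fibroblasts all 4 genes were higher in cKO, and in astrocytes 2 of the 3 measured were, where 12.3%, 9.03% and 11.7% of all genes were. Endothelial cells held 13.3 and 132 CPM (3.32), T cells 69.3 and 256 CPM (1.88), cluster 18 held 17.0 and 136 CPM (3.003), and OPCs 13.7 and 36.5 CPM (1.41). Within the T cell class, cluster 24, with 4 myeloid markers raised, gave 2.87 (1.70 to 4.21) from 30 cKO and 73 Ctrl nuclei. Cluster 11 held 21 and 159 nuclei and gave 0.61 (-1.09 to 1.97), from 5 cKO UMIs. Oligodendrocytes held 3.83 CPM in Ctrl, from 1 UMI, and 35.3 CPM in cKO, from 124 UMIs (3.20, 0.70 to 8.52). That ratio rests on 1 UMI in 46 Ctrl nuclei, so no direction was read for the class. Its summed members did not differ beyond the interval. Neurons held 17.3 CPM in Ctrl and 14.7 CPM in cKO (log2 ratio -0.24, -0.92 to 0.55), a difference within its counting interval.

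Ifit3 in myeloid nuclei stood at 2.19 CPM in Ctrl, 3.05 in ADWA11 and 33.0 in cKO at 7 dpi, and at 3.58, 6.89 and 4.68 CPM at 21 dpi. The cKO library at 7 dpi was far above the others, and its log2 ratio to Ctrl was 3.92 (3.49 to 4.36, from 289 and 54 UMIs). Ifit1 in fibroblasts stood at 5.37, 5.18 and 48.0 CPM at 7 dpi and at 7.00, 11.8 and 12.8 CPM at 21 dpi. Again the cKO library at 7 dpi stood alone, with a log2 ratio of 3.16 (2.77 to 3.55). Ifit2 gave 2.96 in myeloid nuclei, 1.17 in fibroblasts and -0.21 (-1.07 to 0.68) in astrocytes, so the 4 genes did not all differ in every class. Over all nuclei Ifit1 had 1321 UMIs in the cKO library at 7 dpi, of which 897 came from neurons. Their level was 9.02 CPM, beside 11.2 CPM from few UMIs in Ctrl neurons, so no direction was read.

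The ISG15 group holds Isg15, a ubiquitin-like protein joined to other proteins, Herc6, the ligase that joins it in mice, and Usp18, the protease that removes it and also damps the interferon receptor. Isg15 in myeloid nuclei stood at 0.689, 1.68 and 10.98 CPM in Ctrl, ADWA11 and cKO at 7 dpi and at 3.82, 4.71 and 2.79 CPM at 21 dpi. Its log2 ratio of cKO to Ctrl at 7 dpi was 3.99 (3.24 to 4.83), on 96 and 17 UMIs. Usp18 gave 2.21 in myeloid nuclei, 2.22 in fibroblasts and 2.37 in OPCs, and Herc6 gave 1.24, 0.96 and 1.10 in the same classes. All 3 genes of the group were thus higher in myeloid nuclei, and Isg15 and Usp18 in fibroblasts, where 12.3% and 9.03% of all genes were.

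Among the factors that carry the signal, Stat2 and Irf9 are parts of ISGF3 and Irf7 amplifies the response. Irf7 gave a log2 ratio of 2.38 (2.03 to 2.73) in myeloid nuclei and 3.03 (2.29 to 3.77) in fibroblasts, on 199 and 108 UMIs and on 33 and 33 UMIs. Stat2, with far more UMIs, gave 1.11 in myeloid nuclei, 1.38 in fibroblasts and 1.61 in astrocytes, and 0.44 (-0.06 to 0.98) in neurons. Irf9 gave 0.47, 0.98 and 0.99 in the first 3 classes and so stayed under the 2-fold mark in each.

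The OAS genes make the messenger that starts RNA cleavage, the OAS-like genes are related proteins, and Eif2ak2 encodes PKR, which stops translation. Their summed level was 172 CPM in Ctrl and 431 CPM in cKO myeloid nuclei at 7 dpi (log2 ratio 1.33), and 131 and 337 CPM in fibroblasts (1.36). In both classes 5 of the 6 genes were higher, against 12.3% and 9.03% of all genes, and Eif2ak2 was the gene that was not, at 0.91 and 0.88. Oas3 gave 2.71 in myeloid nuclei and 3.35 (2.16 to 4.58) in fibroblasts, the latter on 15 and 12 UMIs. Oasl2 in astrocytes stood at 3.92 CPM in Ctrl and 59.6 CPM in cKO (log2 ratio 3.92, 2.67 to 5.57), on 5 and 136 UMIs.

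Summed over the sensors of viral RNA and DNA, the log2 ratio was 1.07 in myeloid nuclei, 0.88 in fibroblasts and 0.90 in astrocytes. Ifih1 (MDA5) gave 1.06, 0.81 and 1.34 in myeloid nuclei, fibroblasts and astrocytes, and Ddx58 (RIG-I) gave 1.07, 0.76 and 0.46. Of the DNA-binding p200 family, whose members are close copies, Ifi204 gave 1.61 and Ifi213 2.85 in myeloid nuclei. Ifi207 gave 0.50 there, -0.66 (-1.31 to -0.08) in fibroblasts and -1.19 (-2.03 to -0.42) in OPCs, where Sp100 was the other member counted as lower. The fibroblast value of Ifi207 was 0.15 without doublet calls. Zbp1, a sensor of Z-form nucleic acid that can start cell death, gave 1.97 in myeloid nuclei and 2.13 in fibroblasts. In all, 6 of 7 sensors were higher in myeloid nuclei and 3 of 6 in fibroblasts, against 12.3% and 9.03% of all genes.

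The guanylate-binding proteins, GTPases that attack the vacuoles of pathogens and respond to both types of interferon, showed smaller ratios in myeloid nuclei, where 1 of 3 was higher against 12.3% of all genes. Gbp2 gave 1.56, Gbp3 0.53 and Gbp7 0.51 there, and 1.07, 1.47 and 0.93 in fibroblasts. Both chemokines of the list draw T cells through the receptor CXCR3, and their fibroblast values at 7 dpi lay on opposite sides of 0. Cxcl10 in myeloid nuclei stood at 0.972 CPM in Ctrl, 3.65 in ADWA11 and 24.5 in cKO at 7 dpi, and at 5.77, 12.1 and 0.574 CPM at 21 dpi. Its log2 ratio of 4.65 (4.04 to 5.33) at 7 dpi was the largest of the 41 measured members in that class, and at 21 dpi cKO was instead the lowest library. In fibroblasts it stood at 1.36, 5.12 and 22.2 CPM at 7 dpi (log2 ratio 4.03, 3.34 to 4.76) and at 3.27, 14.5 and 1.58 CPM at 21 dpi. By sex call, fibroblast Cxcl10 at 7 dpi stood at 3.04 CPM (female) and 0.257 CPM (male) in Ctrl and at 9.21 and 37.4 CPM in cKO. Cxcl9 had 54 UMIs in Ctrl and 1 UMI in cKO fibroblasts at 7 dpi (log2 ratio -2.72, -8.05 to -0.18), and in myeloid nuclei it was below the minimum of UMIs. The fibroblast value rested on the female-called nuclei of Ctrl, which held 6.604 CPM against 0.385 CPM in the male-called ones, and cKO held 0.0 CPM (female) and 1.01 CPM (male). Cxcl9 was the only fibroblast member counted as lower, and by sex call it was lower in the female and not in the male.

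Of the 14 other effectors, 10 were higher in myeloid nuclei, 13 in fibroblasts and 9 of the 11 measured in astrocytes, against 12.3%, 9.03% and 11.7% of all genes. Rsad2 (viperin), which makes a false nucleotide that stops viral polymerases, stood at 6.52, 17.4 and 66.8 CPM in myeloid nuclei at 7 dpi and at 9.90, 28.3 and 12.6 CPM at 21 dpi. In fibroblasts it stood at 3.36, 6.49 and 45.2 CPM and then at 6.49, 18.97 and 16.4 CPM. Its log2 ratio of cKO to Ctrl at 7 dpi was 3.36 (3.101 to 3.62) in myeloid nuclei and 3.75 (3.30 to 4.21) in fibroblasts, and ADWA11 lay between the other libraries in both classes. Cmpk2, its neighbour on chromosome 12 and the kinase that supplies its substrate, gave 3.33 (2.80 to 3.88) in myeloid nuclei. Ifi44 gave 3.64 (2.95 to 4.40) in myeloid nuclei and 4.00 (3.48 to 4.54) in fibroblasts, and in astrocytes it had 40 UMIs in cKO and 0 in Ctrl, which is at least 7.44-fold higher against a floor of 3 UMIs. Cxcl10 in astrocytes had 38 and 0 UMIs, at least 7.07-fold higher. Rtp4, a chaperone of receptors, had 47 and 1 UMIs in astrocytes (log2 ratio 4.71, 2.16 to 10.05).

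The members that make up most of the sums had moderate ratios, from 0.50 (Ifi207) to 1.61 (Ifi204) on the log2 scale in myeloid nuclei at 7 dpi. The 12 with the most UMIs, led by Rnf213, Ifi207, Sp100 and Parp14, held 76.3% of member UMIs in Ctrl and 68.4% in cKO at 7 dpi, so the summed levels are mostly theirs. The counts were not scaled by gene length, so this order says which genes make up the sums and not which are expressed most. Rnf213, a large ubiquitin ligase, stood at 188 CPM in Ctrl, 168 in ADWA11 and 427 in cKO myeloid nuclei at 7 dpi, and at 162, 319 and 215 CPM at 21 dpi. Its log2 ratio at 7 dpi was 1.19 (1.12 to 1.25) there, 1.79 (1.68 to 1.90) in fibroblasts, 1.67 in astrocytes, 1.39 in OPCs and 0.19 (-0.41 to 0.87) in neurons. Parp14, an ADP-ribosyl transferase, gave 1.21, 1.17 and 1.53 in the first 3 classes. Sp100, a nuclear body protein, gave 0.69 in myeloid nuclei, 1.30 in fibroblasts, -0.21 (-1.03 to 0.63) in astrocytes and -1.24 (-2.01 to -0.53) in OPCs. Trim30a gave 0.99, 1.75, 2.00 and -0.28 in the same order. The 10 members with the highest cKO to Ctrl ratios over all nuclei, Cxcl10, Isg15, Cmpk2, Ifit1, Ifit3, Rsad2, Ifit3b, Ifi44, Irf7 and Rtp4, held 2.46% of member UMIs in Ctrl and 9.45% in cKO. Those shares cover all nuclei and so also take in the class make-up. In myeloid nuclei the 10 held 1.91% in Ctrl and 6.51% in cKO, and in neurons 10.0% and 12.6%. They were chosen by their cKO to Ctrl ratio over all nuclei, and the shares only describe them.

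**Figure D2:**
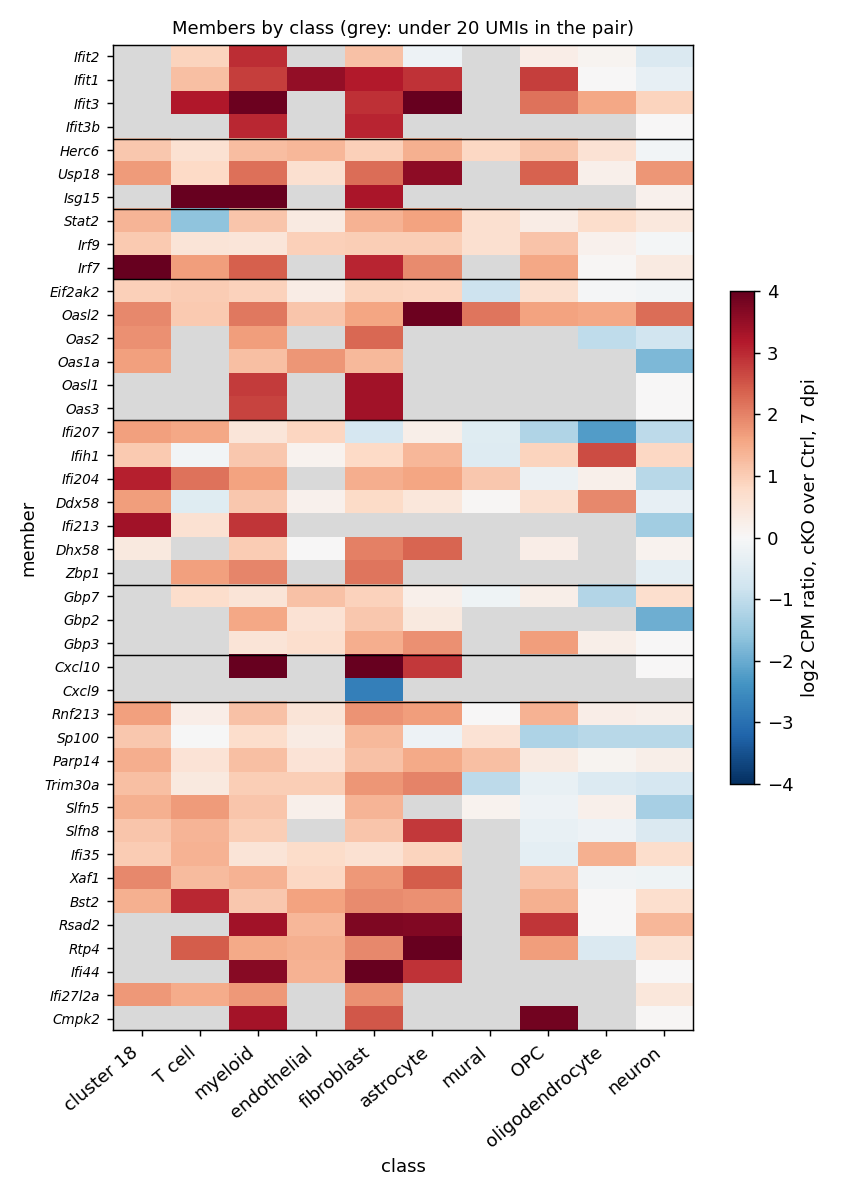
Log2 ratio of CPM in cKO to Ctrl at 7 dpi for each of the 42 members (rows, ordered by role) in each cell class (columns), on a colour scale from -4 to 4, with grey where the pair held under 20 UMIs and a lower bound drawn where Ctrl held 0 UMIs. In myeloid nuclei all 41 measured members lie above 0, and in fibroblasts Cxcl9 (-2.72) and Ifi207 (-0.66) are the 2 that do not.

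Both mice of each library could be told apart in part, since nuclei with Xist and no Y-linked UMI stand for the female and nuclei with a Y-linked UMI and no Xist for the male. In myeloid nuclei the members stood at 1487 CPM (female) and 1663 CPM (male) in Ctrl and at 3278 and 3999 CPM in cKO at 7 dpi. In fibroblasts they stood at 856 and 886 CPM in Ctrl and at 1593 and 3103 CPM in cKO. Both cKO mice were above both Ctrl mice in these classes, and the male-called fibroblasts of cKO were well above the female-called ones. Rsad2 in fibroblasts stood at 7.00 CPM (female) and 1.16 CPM (male) in Ctrl and at 13.3 and 60.7 CPM in cKO, so its ratio was larger in the male-called nuclei. In astrocytes the values were 429 and 433 CPM in Ctrl and 1296 and 1200.0 CPM in cKO, and in OPCs 331 and 325 CPM and 603 and 723 CPM. In neurons they were 406 and 183 CPM in Ctrl and 203 and 255 CPM in cKO, so those groups overlapped. Gene by gene, both cKO values lay above both Ctrl values for 41 of 41 members in myeloid nuclei, where 35.3% of all genes did. The count was 36 of 40 in fibroblasts (30.8% of all genes), 20 of 25 in astrocytes (25.1%), 17 of 25 in OPCs (19.7%) and 12 of 39 in neurons (31.5%). Both mice of a library shared its preparation, so a likeness between them is no replicate of the library.

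**Figure D3:**
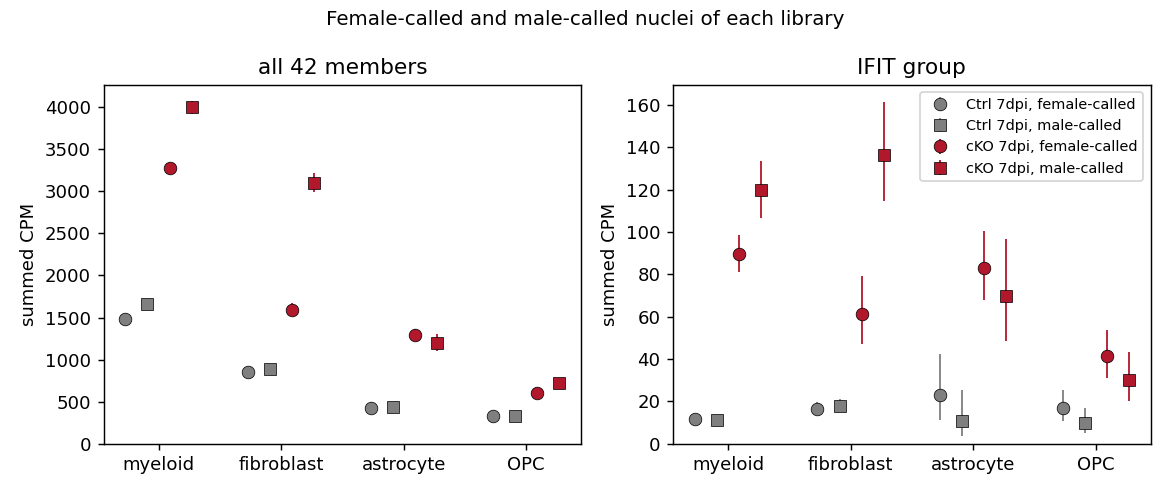
Summed CPM of all 42 members (left) and of the 4 IFIT genes (right) in nuclei called female (circles) and male (squares) in the Ctrl and cKO libraries at 7 dpi, by class, with 95% Poisson intervals. In fibroblasts the cKO nuclei stand at 1593 CPM (female) and 3103 CPM (male) against 856 and 886 CPM in Ctrl.

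The second question was whether the difference was spread over nuclei or held by few, and the upper tail was longer in cKO in the classes that differed, while the median moved in some of them. To compare libraries of unequal depth, each nucleus was thinned to 2000 UMIs, which left 3717 Ctrl and 1833 cKO myeloid nuclei and dropped 375 and 444 shallower ones. After thinning, 87.7% of Ctrl and 92.5% of cKO myeloid nuclei held at least 1 member UMI (96.8% and 95.8% before thinning). In fibroblasts the shares were 76.2% and 87.7% (93.1% and 95.5% before thinning), in astrocytes 61.4% and 72.0% (79.8% and 86.8%), and in OPCs 37.5% and 51.9% (69.0% and 71.3%). In neurons the order was the reverse, 41.2% and 28.8%, and before thinning 61.0% and 78.1%. No class can be taken to lack these genes, so no background share from free RNA could be set beside them.

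The median differed in myeloid nuclei, fibroblasts and OPCs, and the top in astrocytes as well. The median thinned nucleus held 2 member UMIs in Ctrl and 4 in cKO among myeloid nuclei, 1 and 3 among fibroblasts, and 0 and 1 among OPCs. In astrocytes it was 1 in both. The 90th percentile was 7 UMIs in Ctrl and 18 in cKO myeloid nuclei, 4 and 12 in fibroblasts, and 2 and 6 in astrocytes. At least 3 different members were seen in 41.2% of Ctrl and 60.6% of cKO myeloid nuclei, in 20.2% and 47.9% of fibroblasts, and in 5.52% and 22.5% of astrocytes. Of the cKO myeloid nuclei 28.4% (95% interval 26.3 to 30.5) exceeded the 90th percentile of Ctrl, against 8.80% of Ctrl itself, and 7.15% (6.01 to 8.42) exceeded its 99th percentile, against 0.942%. The same shares past the 99th percentile were 14.3% (10.8 to 18.4) against 0.986% in fibroblasts, 13.3% against 0.690% in astrocytes and 5.79% against 1.13% in OPCs. In neurons they were 1.504% and 0.980%. In ADWA11 at 7 dpi they were 1.11% (0.845 to 1.43) in myeloid nuclei, 2.08% (1.59 to 2.68) in fibroblasts, 3.797% in astrocytes and 2.04% in OPCs. Of the ADWA11 myeloid nuclei at 21 dpi, 26.1% (24.4 to 27.7) exceeded the 90th percentile of Ctrl at 21 dpi, against 9.74% of that Ctrl. Its 99th percentile was exceeded by 4.07% (3.37 to 4.87), against 1.03%.

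Nuclei at the top held a larger share of the UMIs in cKO, and the other nuclei still differed. The 10% of nuclei with the most thinned member UMIs carried 36.9% of them in Ctrl and 44.6% in cKO among myeloid nuclei, 34.9% and 44.6% among fibroblasts, and 33.1% and 51.4% among astrocytes. The top 1% carried 8.997% and 9.54%, 8.39% and 8.43%, and 6.08% and 14.6% in the same classes. The variance over the mean of member UMIs was 5.21 in Ctrl and 15.3 in cKO myeloid nuclei, 2.76 and 8.99 in fibroblasts and 1.14 and 8.13 in astrocytes, and a count with no difference between nuclei would give about 1 for each. With the top 10% of nuclei left out of each library, the log2 ratio was 0.89 in myeloid nuclei, 1.12 in fibroblasts, 1.01 in astrocytes and 0.46 in OPCs. The remaining 90% of nuclei thus still held a difference in each.

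**Figure D4:**
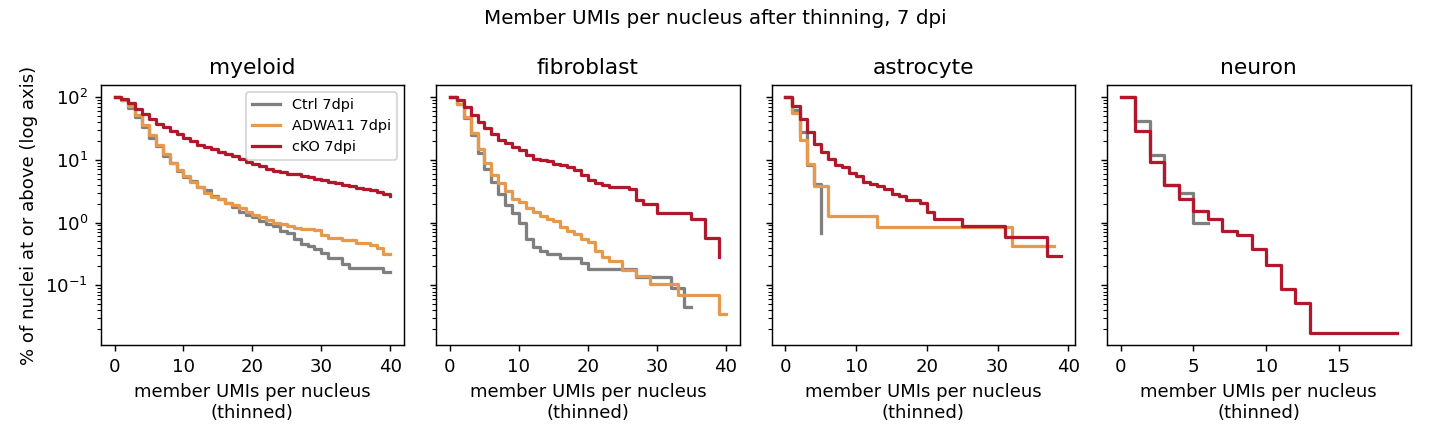
Share of nuclei (vertical axis, log scale) with at least a given number of member UMIs (horizontal axis, shown up to 40) after thinning each nucleus to 2000 UMIs, by class, for the libraries at 7 dpi. Of cKO myeloid nuclei 28.4% lie above 7 UMIs, the 90th percentile of Ctrl, and ADWA11 neurons are not drawn because the class held 27 nuclei.

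The IFIT genes behaved more sharply, since most nuclei held none. After thinning, an IFIT UMI was seen in 2.02% (1.59 to 2.52) of Ctrl and 10.2% (8.85 to 11.7) of cKO myeloid nuclei, which is 75 and 187 nuclei (4.23% and 13.7% before thinning). In fibroblasts it was seen in 3.49% and 16.2% (12.6 to 20.5), in astrocytes in 4.14% and 10.4%, in OPCs in 2.03% and 4.40%, and in neurons in 2.94% and 2.63%. The neuron share was the lowest of these 5 classes in the cKO library at this equal depth. Before thinning its nuclei had the most UMIs, with a median of 15760.0 against 3332 in myeloid nuclei. Nuclei with at least 3 IFIT UMIs numbered 5 in Ctrl and 41 in cKO among myeloid nuclei. The top 1% of myeloid nuclei held 61.5% of IFIT UMIs in Ctrl and 32.8% in cKO. Since few nuclei held any IFIT UMI, these shares move with the detection rates and do not compare how concentrated the UMIs were.

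**Figure D5:**
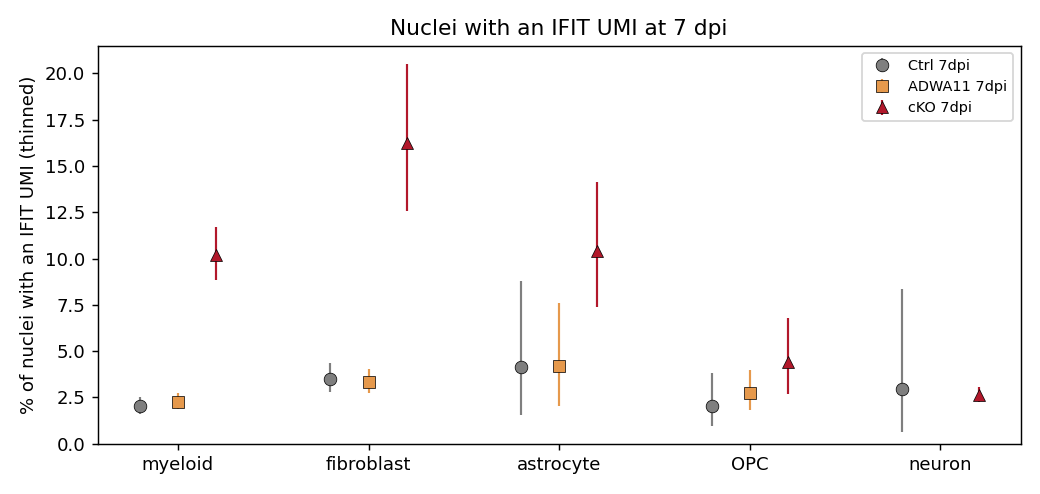
Percentage of nuclei with at least 1 UMI of the 4 IFIT genes after thinning to 2000 UMIs (vertical axis), by class and library, with 95% Clopper-Pearson intervals. The cKO library at 7 dpi stands at 10.2% in myeloid nuclei and 16.2% in fibroblasts against 2.02% and 3.49% in Ctrl, and ADWA11 neurons are not drawn because the class held 27 nuclei.

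IFIT UMIs and UMIs of other inducible members were found in the same nuclei. Among thinned cKO myeloid nuclei with an IFIT UMI, 51.3% also held Rsad2, Cmpk2, Usp18 or Isg15, against 10.1% of those without. In Ctrl the shares were 26.7% and 3.13%. In cKO fibroblasts they were 43.1% and 9.70%, in cKO astrocytes 30.6% and 6.13%, and in cKO neurons 16.4% and 1.56%. In Ctrl fibroblasts they were 7.69% and 2.37%. Each of these cKO classes thus held nuclei in which several members were seen together, neurons included. The neuron share rests on 152 cKO nuclei with an IFIT UMI, and only 3 Ctrl neurons held one. Doublet calls were kept here, and their part in these shares was not tested.

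At 21 dpi the summed members were lower than at 7 dpi in each cKO class measured at both times. The log2 ratio of cKO at 21 dpi to cKO at 7 dpi was -0.61 in myeloid nuclei, with 20 of 41 members lower where 9.73% of all genes were, and -0.60 in fibroblasts, with 15 of 40 lower where 7.1% were. It was -0.58 in astrocytes, with 10 of 38 lower where 4.33% were, and -1.26 in T cells, with 20 of 28 lower where 10.8% were. The cKO T cell class at 7 dpi held 51 nuclei, with more myeloid than T cell markers. Neurons of cKO went from 245 CPM at 7 dpi to 133 CPM at 21 dpi, and oligodendrocytes from 718 to 541 CPM. Neither class had differed from Ctrl at 7 dpi beyond its interval, so the fall was not limited to classes that stood higher then. In myeloid nuclei the log2 ratio was -5.41 for Cxcl10, -3.18 for Ifi27l2a, -3.03 for Ifit2 and -2.82 for Ifit3. Against Ctrl at 21 dpi the cKO myeloid nuclei stood at 0.36 (0.34 to 0.39), with 2 of 42 members higher and 2 lower where 5.91% and 6.03% of all genes were. The higher ones were Gbp7 (1.27) and Oasl1 (1.04), and the lower ones were the chemokines Cxcl10 (-3.33) and Cxcl9 (-3.001). In fibroblasts it was 0.42, with 8 of 42 higher, where 8.69% of all genes were, among them Oasl1 (1.69) and Ifi44 (1.58). Cluster 18 gave -0.98 between the days in cKO, and yet the 10 members of the highest ratios, chosen on 7 dpi, stood there at 474 CPM at 7 dpi and 490.04 CPM at 21 dpi, against 83.2 CPM in Ctrl at 21 dpi. These comparisons share libraries with those at 7 dpi and are not independent of them.

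In ADWA11 the summed ratios to Ctrl were larger at 21 than at 7 dpi in myeloid nuclei and fibroblasts, and not in OPCs, mural cells or oligodendrocytes. Oligodendrocytes stood at 648 CPM in Ctrl and 608 CPM in ADWA11 at 7 dpi. At 21 dpi they stood at 579 and 348 CPM, from 23 ADWA11 nuclei. Endothelial cells stood at 1750 and 1803 CPM and then at 2064 and 2471 CPM. Cluster 18 stood at 2425 and 2265 CPM and then at 2729 and 3158 CPM. OPCs gave -0.15 at 7 dpi and -0.42 (-0.72 to -0.13) at 21 dpi, the latter from 39 ADWA11 nuclei, and mural cells gave 0.31 and -0.11 (-0.26 to 0.05). At 7 dpi the log2 ratio to Ctrl was 0.12 in myeloid nuclei, with 7 of 42 members higher where 7.22% of all genes were, and 0.17 in fibroblasts, with 4 of 41 higher where 6.97% were. Those of the myeloid class included Cxcl9 (3.54), Gbp2 (1.94), Cxcl10 (1.91), Cmpk2 (1.47) and Rsad2 (1.42). At 21 dpi the log2 ratio was 0.83 (0.81 to 0.86) in myeloid nuclei, with 17 of 42 members higher by 2-fold where 4.98% of all genes were, and a median of 0.96 against -0.07 for all genes. The largest were Gbp2 at 7.40 CPM in Ctrl and 39.7 CPM in ADWA11 (2.42), Cxcl9 at 4.597 and 21.4 CPM (2.22) and Gbp7 at 15.1 and 61.7 CPM (2.03). The GTPases as a group gave 2.10 and the IFIT genes 1.14, whereas for cKO at 7 dpi these were 0.65 and 3.17. In fibroblasts it was 0.50, with 6 of 42 higher where 4.22% of all genes were and a median of 0.62 against 0.02, and Cxcl9 (2.34) and Cxcl10 (2.15) stood first. Astrocytes gave 0.57, with 7 of 37 higher where 3.42% were, and T cells gave 0.08. At 7 dpi astrocytes stood at 474 CPM (437 to 513) in Ctrl and 642 CPM (611 to 675) in ADWA11. That Ctrl class held more OPC than astrocyte markers, so the astrocyte ratios of the days were not ranked. By sex call, myeloid nuclei stood at 3156 CPM (female) and 3330.0 CPM (male) in ADWA11 and at 1817 and 1787 CPM in Ctrl at 21 dpi. The unnamed cluster 7, led by Fabp4, Cd5l and Mmp12, gave 0.43 with 12 of 40 higher where 6.66% of all genes were, and 2667 of its nuclei came from ADWA11 at 21 dpi. It held 24.9% of that library's UMIs at 2039 CPM, and the named myeloid class held 19.6% at 3269.9 CPM. The myeloid values of that library therefore leave out cluster 7.

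Ligands and receptors upstream of the list were also counted. The 18 type I interferon genes had 8, 18 and 14 UMIs in Ctrl, ADWA11 and cKO at 7 dpi and 23, 18 and 6 at 21 dpi in whole libraries, too few to compare. The 3 genes of type II and III interferon had 7, 16 and 13 UMIs and then 6, 33 and 21. Of all genes at 7 dpi, 12.3% were higher and 5.2% lower in cKO in myeloid nuclei, and 9.03% and 5.29% in fibroblasts. Of 6 receptor genes 0 were higher in either class, which is near those shares, and Ifnlr1 was lower in myeloid nuclei. Of a further list of interferon-stimulated genes, 9 of 24 measured were higher in myeloid nuclei and 12 of 24 in fibroblasts. Of genes led by interferon-γ, 6 of 14 were higher and 5 lower in myeloid nuclei, and 6 of 15 and 3 in fibroblasts. The lower ones of the myeloid class were Ciita, Cd74, H2-Aa, H2-Ab1 and H2-Eb1, the genes of antigen presentation by MHC class II. Ciita was among the leading genes of cluster 1, although the genes of these lists were not used to form the clusters. That cluster held 1464 of the 4092 Ctrl and 226 of the 2277 cKO myeloid nuclei, so the make-up of the class moved with these genes.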

How the data were processed

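Nuclei from 6 libraries were profiled with 10x 3' chemistry. The authors aligned reads to mm10 and deposited raw UMI counts per feature and barcode, made with Cell Ranger (7.2.0 in the file headers, 7.1.0 in the submitters' processing notes), and whether intronic reads were counted is not given in the sources used here. Barcodes between the 2.5 and 97.5 percentiles of UMIs and genes, and up to the 97.5 percentile of mitochondrial share, in each library were kept (61917 of 67360). They were clustered with Seurat 5.3.0 and sctransform 0.4.2 in R 4.3.3 (3000 variable genes, 30 components, resolution 0.5, with sub-clusters at 0.2 to 0.5). The members and the other interferon gene lists were left out of the variable genes. A class was named from at least 3 markers. Simulated doublets gave 5825 doublet calls, which were kept except in 1 sub-cluster (267 nuclei) in which over 50% were called, leaving 61650 nuclei.

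UMIs were summed by library and class and divided by non-mitochondrial totals (CPM). Ratios carry exact conditional binomial intervals, levels exact Poisson intervals and shares Clopper-Pearson intervals, at 95%, with bounds taken against 3 counts. A ratio needed 20 nuclei of a class, and a share of nuclei 50. Members were named as the 12 with the most UMIs and the 10 with the highest cKO to Ctrl ratio at 7 dpi, with up to 5 by ratio in each class and the rest described by role, and single values outside that rule were chosen after they were seen. The members and gene lists were chosen with earlier results of these data known. The scripts were tested on simulated data. Python 3.11.15, numpy 2.4.6, scipy 1.17.1, pandas 2.3.3, scikit-learn 1.9.0 and edgeR 4.0.16 (for TMM factors only) were used. The alternatives were TMM scaling, other filters, clustering, doublet handling, class weighting, the sexes apart, thinning, and leaving out the top nuclei or Rnf213. Coordinates are GRCm38 (GENCODE M21) and promoters RefSeq GRCm38.p6.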

Additional observations from a re-analysis of the deposited data

How the results depend on the processing

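No paired analysis was possible because each group was 1 library and the labels carry no replicate numbers, and leaving out a library would leave its group empty. Of 575 recomputed values over 154 results, 339 moved by no more than their counting interval, 224 moved further and 12 turned the sign of a value whose interval did not include 0. All values here are log2 ratios of summed member CPM at 7 dpi, cKO to Ctrl, unless named otherwise. Where no construction below shows it, the cause of a change was not tested.

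For all nuclei, cKO gave -0.66 with TMM factors, -0.14 as a mean per nucleus, -1.06 with no nucleus filter, -1.31 in female-called nuclei, -0.69 in male-called nuclei and -1.16 without the top 1% of nuclei. The sign changed without the neuron clusters (0.86) and with class make-up held at that of Ctrl (1.22). At 21 dpi cKO to Ctrl changed sign as a mean per nucleus (0.094), without neurons (0.24) and with class make-up held (0.33), and gave -0.33 with no filter, -0.12 in each sex and -0.18 without the top 1%. ADWA11 at 7 dpi gave 0.038 with TMM, 0.056 without neurons, 0.12 with class make-up held, 0.13 (female), 0.039 (male), 0.048 without the top 1% and 0.091 without Rnf213. At 21 dpi it gave 0.75 with TMM, 0.78 with no filter, 0.56 with class make-up held, 0.57 (female) and 0.86 (male).

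Within classes, TMM gave 1.03 in myeloid nuclei, 1.18 in fibroblasts and 0.57 in endothelial cells, and the median member over all nuclei was -0.43. The mean per nucleus gave 1.15 in myeloid nuclei, 1.34 in fibroblasts, 1.31 in astrocytes, 0.41 in oligodendrocytes and -0.29 in neurons. Female-called nuclei gave 1.14 (myeloid), 0.90 (fibroblast), 1.60 (astrocyte), 0.87 (OPC), 0.35 (mural) and -0.999 (neuron). Male-called nuclei gave 1.27 (myeloid), 1.81 (fibroblast), 1.15 (OPC), 1.44 (cluster 18) and 0.48 (neuron), so neurons gave opposite signs in the sexes. Log-normalised clustering gave 0.63 in OPCs, 1.07 in T cells and -0.28 in neurons. Leaving out doublet calls gave 1.14 in OPCs, 1.495 in fibroblasts and -0.25 in neurons. Without Rnf213 OPCs gave 0.64 and fibroblasts 1.34, and without the top 1% myeloid nuclei gave 1.15. The next 2 alternatives, and the recomputed IFIT group and single members below, were chosen after seeing the data. Without sub-clusters led by genes of another class the values were 1.04 in myeloid nuclei (with 1931 and 26 of the 2277 cKO nuclei left out), 1.52 in fibroblasts and 1.05 in T cells. Without the top 10% of nuclei they were 0.89, 1.12, 1.01 and 0.46 in myeloid nuclei, fibroblasts, astrocytes and OPCs. Single members changed sign over all nuclei for Herc6 (0.091 with TMM, 0.035 in male-called nuclei), Stat2 (0.13 and 0.088), Ifi44 (-0.65 in female-called nuclei) and Rtp4 (-0.27), and in fibroblasts for Ifi207 (0.15 without doublet calls).

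Thinning to 2000 UMIs moved the share of nuclei with a member UMI to 80.0% in Ctrl and 47.8% in cKO over all nuclei, and the top 1% then held 20.3% of member UMIs in cKO. By class the thinned shares of Ctrl and cKO nuclei were 87.7% and 92.5% (myeloid), 76.2% and 87.7% (fibroblast), 41.2% and 28.8% (neuron), 61.4% and 72.0% (astrocyte) and 37.5% and 51.9% (OPC). The thinned top 1% held 8.997% and 9.54% in myeloid nuclei, 8.39% and 8.43% in fibroblasts, 6.08% in Ctrl astrocytes and 16.7% in cKO neurons. The Ctrl classes at 7 dpi with few nuclei (136 neurons and 46 oligodendrocytes) gave imprecise ratios of single members.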
